A study of Mus musculus with 12 samples.

Results

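The genes of the skeletal muscle sarcomere and of its contraction were described in 12 mouse sarcoma tumors. The set was named by gene symbol and held 34 genes, of which 32 were among the 16335 genes of the deposited table; Tnnc2 and Myl2 were not analysed here. Of these 32 genes, 9 belong mainly to fast fibers, 5 mainly to slow fibers and 18 to fibers of both kinds. All tumors were of 1 cell line, BVMA01R, a sarcoma line from female C57BL/6J mice with the genotype Myf5-Cre;p53-/-;Ass1-/-. The cells of this line therefore lacked p53 and Ass1 in every group, the controls included. The Myf5 promoter that drives this Cre is active in muscle progenitors. The tumors fell into 4 groups of 3: ADI-PEG20 with chloroquine (ADI-PEG20 + CQ), ADI-PEG20 alone, chloroquine alone (CQ) and no treatment (NT). ADI-PEG20 is a pegylated arginine deiminase that removes arginine from the blood, and cells without Ass1 cannot make arginine from citrulline. Chloroquine blocks degradation in lysosomes. Doses and times were not given in the sources used here, and the labels do not say whether the libraries of a group came from separate animals, and p-values therefore measure the spread between these samples, which may be technical.

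The sarcomere is the repeating contractile unit of striated muscle. Thick filaments of myosin, held in register by titin and by the M band, pull on thin filaments of actin that are anchored at the Z disc. A nerve impulse opens calcium release channels of the sarcoplasmic reticulum, calcium binds troponin on the thin filament, and the calcium pump ends the contraction. Fast and slow fibers build the same machine from different gene copies: Tnni2 and Tnni1 for troponin I, Tnnt3 and Tnnt1 for troponin T, Mybpc2 and Mybpc1 for myosin binding protein C. In a bulk tumor, fewer cells of a type and less RNA per cell cannot be told apart, and RNA of all cells in the tumor is counted together.

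RefSeq promoters (GRCm38.p6, 300 bases, of which 250 lie before the start and 50 after it) matched 23 of the 32 genes. Neb, Actn3, Tnni2, Tnnt3, Trdn, Jph1, Myoz1, Tcap and Myom2 had no entry. The letters CAGCTG, the E-box that muscle transcription factors of the MyoD family favour, stood in 14 of these 23 promoters, or 60.9%, against 16.1% of the 27025 promoters of the table. The motif reads the same on both strands and was counted once. The MCAT element CATTCC stood on either strand in 8 of the 23 (34.8%), against 14.6% of the 27025. TATAAA stood on either strand in 5 (21.7%), against 14.2%. A MEF2 site stood in the promoters of Xirp2 and Ttn, or 8.7% against 3.3%, and a CArG box in those of Acta1 and Myom1, or 8.7% against 1.6%. A match is a description, not a site in use or a cause, and no match says only that these letters are not in this window. The 7 promoters below belong to genes named in the text: a thin filament actin, a fast calcium pump, a fast myosin light chain, slow troponin I, the voltage sensor, a Z disc protein and slow troponin C. Each is written 5′ to 3′ with CAGCTG, or a MEF2 site, in capitals; Tnnc1 holds neither.
Acta1, chr8:123894726-123895025, minus strand: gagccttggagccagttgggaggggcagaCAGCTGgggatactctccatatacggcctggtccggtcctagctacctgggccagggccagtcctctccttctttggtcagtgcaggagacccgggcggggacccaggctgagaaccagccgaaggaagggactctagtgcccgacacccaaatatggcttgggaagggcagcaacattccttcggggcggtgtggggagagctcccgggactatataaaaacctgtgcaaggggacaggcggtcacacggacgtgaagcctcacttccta
Atp2a1, chr7:126463024-126463323, minus strand: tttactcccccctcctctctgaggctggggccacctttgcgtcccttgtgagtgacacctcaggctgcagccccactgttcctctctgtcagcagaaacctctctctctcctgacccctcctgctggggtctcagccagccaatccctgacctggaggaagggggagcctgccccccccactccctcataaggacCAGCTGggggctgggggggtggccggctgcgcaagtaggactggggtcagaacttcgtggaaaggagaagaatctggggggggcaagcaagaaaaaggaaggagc
Mylpf, chr7:127211358-127211657, plus strand: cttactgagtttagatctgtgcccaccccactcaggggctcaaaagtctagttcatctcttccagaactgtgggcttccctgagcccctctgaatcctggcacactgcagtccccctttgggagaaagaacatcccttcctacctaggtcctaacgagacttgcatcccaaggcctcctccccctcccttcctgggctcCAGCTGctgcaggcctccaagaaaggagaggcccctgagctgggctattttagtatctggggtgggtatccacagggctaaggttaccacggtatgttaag
Tnni1, chr1:135799171-135799470, plus strand: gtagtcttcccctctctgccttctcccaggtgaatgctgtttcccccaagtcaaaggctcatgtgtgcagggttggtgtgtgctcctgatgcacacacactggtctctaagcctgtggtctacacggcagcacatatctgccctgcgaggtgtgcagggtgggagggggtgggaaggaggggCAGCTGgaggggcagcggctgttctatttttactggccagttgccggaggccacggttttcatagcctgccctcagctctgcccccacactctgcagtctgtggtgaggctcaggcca
Cacna1s, chr1:136052561-136052860, plus strand: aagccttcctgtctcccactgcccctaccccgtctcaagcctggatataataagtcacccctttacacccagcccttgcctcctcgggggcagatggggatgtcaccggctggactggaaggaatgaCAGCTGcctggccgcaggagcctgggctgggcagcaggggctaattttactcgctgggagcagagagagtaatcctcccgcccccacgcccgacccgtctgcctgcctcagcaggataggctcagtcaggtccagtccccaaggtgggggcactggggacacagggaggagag
Xirp2, chr2:67445752-67446051, plus strand: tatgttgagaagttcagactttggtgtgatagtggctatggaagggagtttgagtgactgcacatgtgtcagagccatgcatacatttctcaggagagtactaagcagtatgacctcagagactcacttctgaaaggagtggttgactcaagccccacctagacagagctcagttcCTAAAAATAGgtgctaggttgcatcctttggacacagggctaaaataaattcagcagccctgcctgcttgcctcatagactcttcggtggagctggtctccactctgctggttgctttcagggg
Tnnc1, chr14:31208062-31208361, plus strand: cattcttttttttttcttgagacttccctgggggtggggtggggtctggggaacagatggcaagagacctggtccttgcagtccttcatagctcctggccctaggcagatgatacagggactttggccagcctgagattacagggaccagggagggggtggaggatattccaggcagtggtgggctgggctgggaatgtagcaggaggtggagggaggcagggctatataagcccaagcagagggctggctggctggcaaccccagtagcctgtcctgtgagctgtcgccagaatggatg

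Each library held 15501998 to 28410940 reads, recovered from the deposited values, and the 32 genes took 0.0546% to 0.644% of them. The share was 0.114%, 0.121% and 0.0816% in the ADI-PEG20 + CQ tumors, 0.644%, 0.192% and 0.0546% in the ADI-PEG20 tumors, 0.438%, 0.364% and 0.367% in the CQ tumors and 0.621%, 0.0861% and 0.427% in the NT tumors. The 3 CQ tumors lay close together, the 3 combination tumors were low, and the ADI-PEG20 and NT groups each spanned from low to high. On the log2 scale of CPM, the reads of a gene scaled to a common library size (log2 CPM), the standard deviation over the 12 tumors had a median of 1.80 across the 32 genes, against 0.343 across all genes. The smallest values belonged to Eno3 (0.487) and Jph1 (0.478). ADI-PEG20 tumor 1 held the highest level of 19 of the 32 genes and NT tumor 1 that of 7. ADI-PEG20 + CQ tumor 1 held the lowest level of 15 genes and ADI-PEG20 tumor 3 that of 7. The library of ADI-PEG20 tumor 1 stood apart in other measures too. The transcript Gm26917 took 22.8% of its reads and 120 genes had 0 reads, against 5.09% to 16.4% and 7 to 43 genes in the other 11 libraries. The highest Gm26917 share after it was that of NT tumor 2, and the combination libraries (5.09% to 6.29%) lay below the CQ libraries (7.83% to 9.86%). The part of these differences in the levels of the muscle genes was not tested. The median of the 32 genes without ADI-PEG20 tumor 1 is given with each comparison of its group. That tumor also enters the spread that the fit of 12 tumors uses in the other comparisons.

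**Figure D1:**
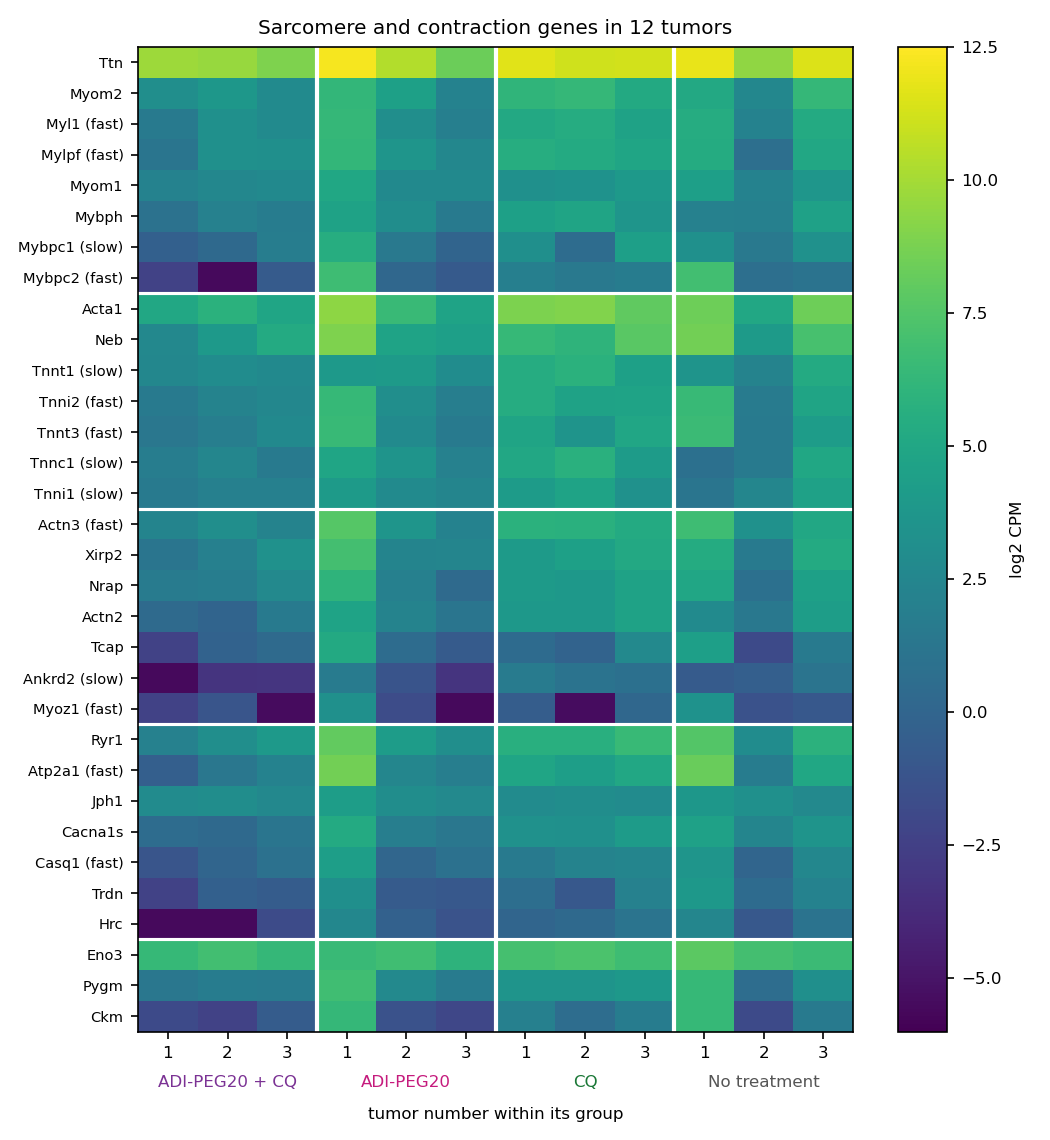
Levels (log2 CPM, color scale) of the 32 genes in each of the 12 tumors, with columns grouped by treatment and rows by role in the order thick filament and M band, thin filament, Z disc, calcium handling and energy supply. ADI-PEG20 tumor 1, highest for 19 genes, and NT tumor 1, highest for 7, stand out as bright columns, and the ADI-PEG20 + CQ columns, ADI-PEG20 tumor 3 and NT tumor 2 are dark.

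Among the thin filament genes, Acta1, the skeletal muscle alpha actin, was the most abundant (ENSMUSG00000031972, chromosome 8, 123891769 to 123894751, minus strand, GRCm38). Per kilobase of exon it averaged 155 CPM over the 12 tumors, the highest of the 32 genes. It had 34.1, 57.5 and 29.1 CPM in ADI-PEG20 + CQ tumors, 669, 94.8 and 26.5 CPM in ADI-PEG20 tumors, 464, 498 and 248 CPM in CQ tumors, and 342, 34.3 and 351 CPM in NT tumors. The combination tumors lay below all 3 CQ tumors and overlapped the NT group, whose tumor 2 was as low as they were. Acta1 averaged 5.27 ± 0.51 log2 CPM with both drugs and 8.59 ± 0.55 log2 CPM with chloroquine alone (SD, n = 3 each), a log2 difference of -3.32 (SE 1.0, limma adjusted p = 0.535 over 16335 genes).

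Troponin I, the inhibitory subunit of troponin, is made from Tnni2 in fast fibers (ENSMUSG00000031097, chromosome 7, 142441808 to 142444410) and from Tnni1 in slow fibers (ENSMUSG00000026418, chromosome 1, 135779434 to 135810989). Tnni2 had 3.08, 4.75 and 5.91 CPM in ADI-PEG20 + CQ tumors, 82.5, 8.7 and 3.79 CPM in ADI-PEG20 tumors, 44.3, 25.1 and 26.5 CPM in CQ tumors, and 88.9, 3.25 and 27.4 CPM in NT tumors. Tnni1 had 3, 4.2 and 4.18 CPM in ADI-PEG20 + CQ tumors, 17.2, 7.19 and 5.4 CPM in ADI-PEG20 tumors, 17.4, 25.9 and 10.1 CPM in CQ tumors, and 2.28, 5.65 and 24 CPM in NT tumors. The fast and slow forms parted in NT tumor 1, which held the highest Tnni2 and the lowest Tnni1 of the 12 tumors. Tnni1 was lower in every ADI-PEG20 + CQ tumor than in every ADI-PEG20 tumor and every CQ tumor, while the ranges of the combination and NT groups overlapped. Per kilobase of exon, Tnni2 averaged 18.0 CPM and Tnni1 2.93 CPM over the 12 tumors.

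Troponin T, which ties troponin to tropomyosin, was read in the same way. Tnnt3, the fast form (ENSMUSG00000061723, chromosome 7, 142498836 to 142516009), had 2.44, 3.68 and 7 CPM in ADI-PEG20 + CQ tumors, 86.7, 7.16 and 2.87 CPM in ADI-PEG20 tumors, 28.3, 12.1 and 31.2 CPM in CQ tumors, and 99.5, 2.89 and 18.9 CPM in NT tumors. Tnnt1, the slow form (ENSMUSG00000064179, chromosome 7, 4504570 to 4516382), had 5.95, 7.96 and 6.96 CPM in ADI-PEG20 + CQ tumors, 16, 16.7 and 7.88 CPM in ADI-PEG20 tumors, 42.7, 57.7 and 22.7 CPM in CQ tumors, and 12.1, 4.79 and 40.4 CPM in NT tumors. The highest Tnnt3 was in NT tumor 1 and the highest Tnnt1 in CQ tumor 2. Both forms were lower in every combination tumor than in every CQ tumor. Tnnc1, the slow and cardiac troponin C that binds calcium (ENSMUSG00000091898, chromosome 14, 31208312 to 31211729), had 3.64, 5.57 and 3 CPM in ADI-PEG20 + CQ tumors, 29.6, 11.8 and 4.31 CPM in ADI-PEG20 tumors, 34.5, 53.7 and 17.4 CPM in CQ tumors, and 1.72, 3.07 and 33 CPM in NT tumors. It was high in all CQ tumors, NT tumor 3 and ADI-PEG20 tumor 1, and lowest in NT tumor 1. Neb, the ruler of the thin filament, ran from 2.62 to 8.93 log2 CPM and was also highest in ADI-PEG20 tumor 1.

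**Figure D2:**
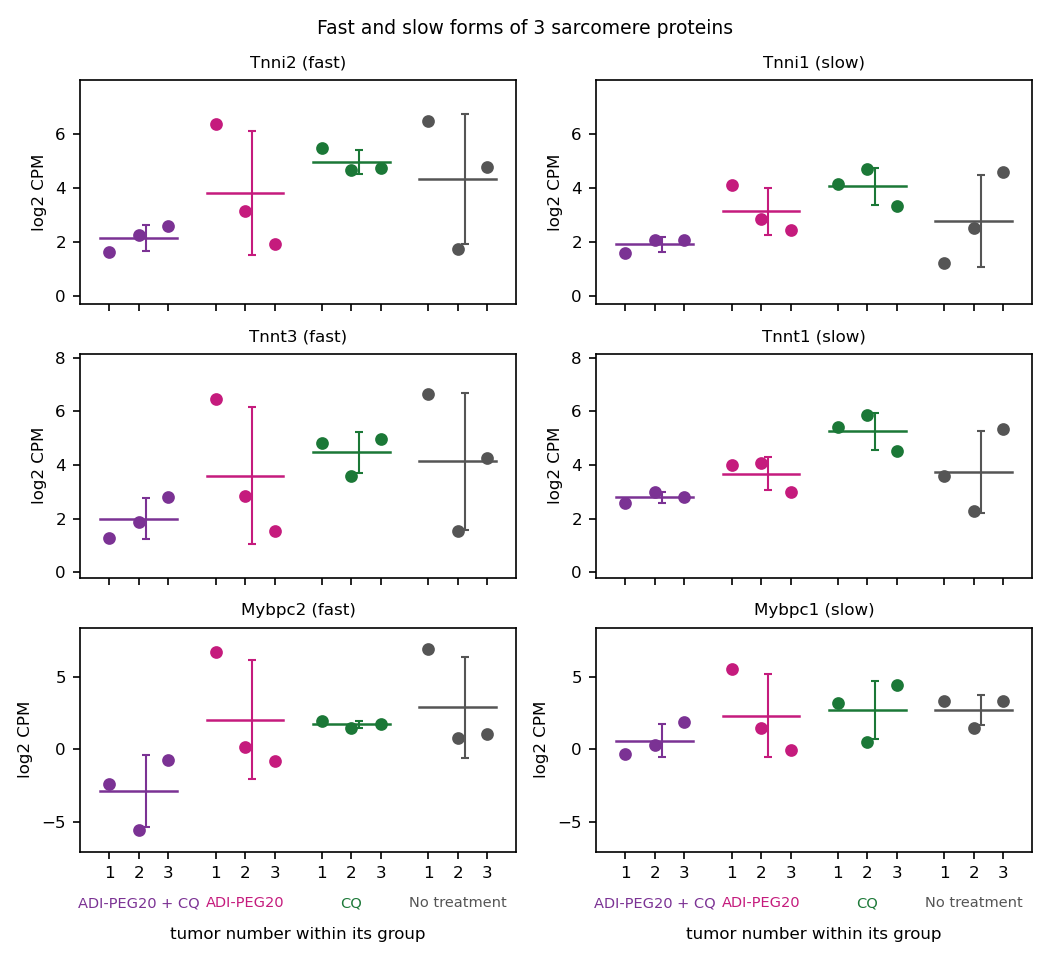
Levels (log2 CPM) of the fast form (left) and the slow form (right) of troponin I, troponin T and myosin binding protein C, with 1 point per tumor, a line at the group mean and bars for the SD (n = 3). NT tumor 1 is the highest of the 12 for all 3 fast forms, and is the lowest for Tnni1.

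The thick filament and M band genes were led by Ttn, which encodes the giant spring protein titin (ENSMUSG00000051747, chromosome 2, 76703980 to 76982547, minus strand). Ttn had 878, 789 and 484 CPM in ADI-PEG20 + CQ tumors, 4970, 1320 and 318 CPM in ADI-PEG20 tumors, 3220, 2260 and 2480 CPM in CQ tumors, and 3820, 696 and 3030 CPM in NT tumors. All combination tumors lay below all CQ tumors, while the ADI-PEG20 and NT groups each had a tumor below or among the combination tumors. Ttn is long, and per kilobase of exon its mean of 17.3 CPM was below that of Mylpf, the fast regulatory light chain of myosin, at 24.1 CPM. Mylpf (ENSMUSG00000030672, chromosome 7, 127208890 to 127214298) had 2.23, 9.76 and 9.37 CPM in ADI-PEG20 + CQ tumors, 74.3, 12.7 and 5.83 CPM in ADI-PEG20 tumors, 47.2, 39.1 and 29.5 CPM in CQ tumors, and 40.6, 1.66 and 34.6 CPM in NT tumors. NT tumor 2 was the lowest of all for Mylpf.

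Myosin binding protein C, which trims the action of myosin, comes from Mybpc2 in fast fibers (ENSMUSG00000038670, chromosome 7, 44501699 to 44524656) and from Mybpc1 in slow fibers (ENSMUSG00000020061, chromosome 10, 88518279 to 88605152). Mybpc2 had 4, 0 and 13 reads in ADI-PEG20 + CQ tumors, 1358, 35 and 13 reads in ADI-PEG20 tumors, 72, 58 and 69 reads in CQ tumors, and 3018, 27 and 32 reads in NT tumors. This was the widest range of the 32 genes, 12.46 on the log2 CPM scale, where 0 reads take the value that the 0.5 read added by the authors gives. Mybpc1 had 18, 28 and 80 reads in ADI-PEG20 + CQ tumors, 578, 86 and 22 reads in ADI-PEG20 tumors, 174, 30 and 449 reads in CQ tumors, and 249, 46 and 157 reads in NT tumors. Its combination and CQ groups overlapped, through CQ tumor 2. The other members of this role were Myl1, an essential light chain of fast myosin, Mybph, a relative of the binding protein C genes, and Myom1 and Myom2, which cross-link myosin in the M band. Their levels ran from 0.99 to 6.32 log2 CPM, and all 4 were lower in every combination tumor than in every CQ tumor. Mybph shares 49.9% of its exon bases with Adora1 on the opposite strand, and the strand setting of the counting was not given in the sources used here.

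At the Z disc, Actn3, the fast alpha actinin that cross-links thin filaments, had the highest mean log2 CPM (ENSMUSG00000006457, chromosome 19, 4861216 to 4877909, minus strand). It had 5.05, 8.91 and 4.87 CPM in ADI-PEG20 + CQ tumors, 193, 12.4 and 4.53 CPM in ADI-PEG20 tumors, 57.7, 54.5 and 39.1 CPM in CQ tumors, and 110, 10.1 and 34.3 CPM in NT tumors. All combination tumors were below all CQ and all NT tumors, and ADI-PEG20 tumor 3 was the lowest of the 12. Actn2, the form of all striated muscle, Xirp2 and Nrap, which bind actin at attachment sites, and Tcap, the titin cap, were each highest in ADI-PEG20 tumor 1. Myoz1, a calcineurin-binding protein of fast fibers, gave 268 reads in NT tumor 1 and 124 in ADI-PEG20 tumor 1, and 0 to 23 reads in the other 10 tumors. It was at 0 reads in 3 of those. Ankrd2, a stretch-responsive protein of slow fibers (ENSMUSG00000025172, chromosome 19, 42036000 to 42045110), had 0, 2 and 2 reads in ADI-PEG20 + CQ tumors, 40, 13 and 2 reads in ADI-PEG20 tumors, 60, 44 and 36 reads in CQ tumors, and 15, 12 and 34 reads in NT tumors. All combination tumors were at or under the floor of 3 reads used here for counting error.

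Among the calcium handling genes, Ryr1, the calcium release channel, had the highest mean log2 CPM (ENSMUSG00000030592, chromosome 7, 29003344 to 29125179, minus strand). It had 4.45, 8.82 and 15.2 CPM in ADI-PEG20 + CQ tumors, 266, 18.3 and 8.97 CPM in ADI-PEG20 tumors, 51.5, 51.3 and 90.6 CPM in CQ tumors, and 184, 8.04 and 57.9 CPM in NT tumors. The 3 CQ tumors, NT tumors 1 and 3 and ADI-PEG20 tumors 1 and 2 lay above all combination tumors. Atp2a1, the calcium pump of fast fibers, ranged from 0.727 CPM in ADI-PEG20 + CQ tumor 1 to 373 CPM in ADI-PEG20 tumor 1, and NT tumor 1 was second with 301 CPM. It shares 21.9% of its exon bases with Rabep2 on the opposite strand. Cacna1s, the voltage sensor of the calcium release unit (ENSMUSG00000026407, chromosome 1, 136052750 to 136119822), had 0.52, 0.34 and 1.17 log2 CPM in ADI-PEG20 + CQ tumors, 5.3, 1.9 and 1.35 log2 CPM in ADI-PEG20 tumors, 3.38, 3.3 and 4.14 log2 CPM in CQ tumors, and 4.57, 2.43 and 3.6 log2 CPM in NT tumors. Its 3 combination tumors were the 3 lowest of the 12. It also shares exon bases with Gm37759 on the opposite strand.

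Hrc, a calcium-binding protein of the sarcoplasmic reticulum (ENSMUSG00000038239, chromosome 7, 45335290 to 45338974), had 0, 0 and 6 reads in ADI-PEG20 + CQ tumors, 75, 25 and 9 reads in ADI-PEG20 tumors, 19, 26 and 43 reads in CQ tumors, and 139, 8 and 32 reads in NT tumors. The combination tumors were the 3 lowest of the 12. Casq1, which stores calcium in fast fibers, and Trdn, which anchors the release channel, spanned 5.55 and 6.23 on the log2 CPM scale. Jph1, which holds the reticulum against the cell membrane, spanned 1.65.

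The energy supply genes differed in how much they varied. Eno3, the muscle form of the glycolytic enzyme enolase, was the most abundant of them (ENSMUSG00000060600, chromosome 11, 70657202 to 70662513). It had 82.5, 122 and 78.7 CPM in ADI-PEG20 + CQ tumors, 93.9, 111 and 63.1 CPM in ADI-PEG20 tumors, 135, 153 and 106 CPM in CQ tumors, and 227, 128 and 97.7 CPM in NT tumors. No pair of groups was free of overlap, and per kilobase of exon its mean of 67.0 CPM was second to Acta1. Ckm, the muscle creatine kinase that rebuilds ATP from phosphocreatine (ENSMUSG00000030399, chromosome 7, 19404776 to 19422841), had 6, 4 and 14 reads in ADI-PEG20 + CQ tumors, 1010, 12 and 5 reads in ADI-PEG20 tumors, 77, 32 and 70 reads in CQ tumors, and 2134, 4 and 48 reads in NT tumors. NT tumor 1 and ADI-PEG20 tumor 1 were far above the other 10 tumors. Ckm shares 15.5% of its exon bases with A930016O22Rik on the opposite strand. Pygm, which frees glucose from glycogen, ran from 0.59 log2 CPM in NT tumor 2 to 6.81 log2 CPM in ADI-PEG20 tumor 1.

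Fast and slow fiber genes were then compared within each tumor. The gap between their mean levels depends on the lengths of the genes in each list, so only its variation between tumors was read. The mean of the 9 fast genes minus that of the 5 slow genes was 0.16, 0.02 and 0.14 in ADI-PEG20 + CQ tumors, 2.17, -0.20 and -0.12 in ADI-PEG20 tumors, -0.04, -0.52 and 0.33 in CQ tumors, and 4.23, -0.31 and -0.30 in NT tumors, on the log2 CPM scale. In 10 of the 12 tumors the gap lay between -0.52 and 0.33, and NT tumor 1 and ADI-PEG20 tumor 1 stood apart, both toward fast genes. Single pairs of forms varied more in those 10 tumors. Tnni2 minus Tnni1 ran from -0.79 to 1.38 and Tnnt3 minus Tnnt1 from -2.25 to 0.46. Mybpc2 minus Mybpc1 ran from -5.83, at 0 reads of Mybpc2, to 0.94. NT tumor 1 and ADI-PEG20 tumor 1 lay above each of these ranges, and their ways of standing apart differed. NT tumor 1 had 9 of 9 fast genes above NT tumor 3 (median difference 1.70) and 5 of 5 slow genes below it (median difference -1.83). ADI-PEG20 tumor 1 was above NT tumor 1 in 5 of 5 slow genes (median difference 2.38) and in 5 of 9 fast genes (median difference 0.31). For 20 genes these 2 tumors held the 2 highest levels: 7 of the 9 fast genes, 13 of the 18 genes of both fiber kinds and 0 of the 5 slow genes. Each is a single tumor, so no test was possible.

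**Figure D3:**
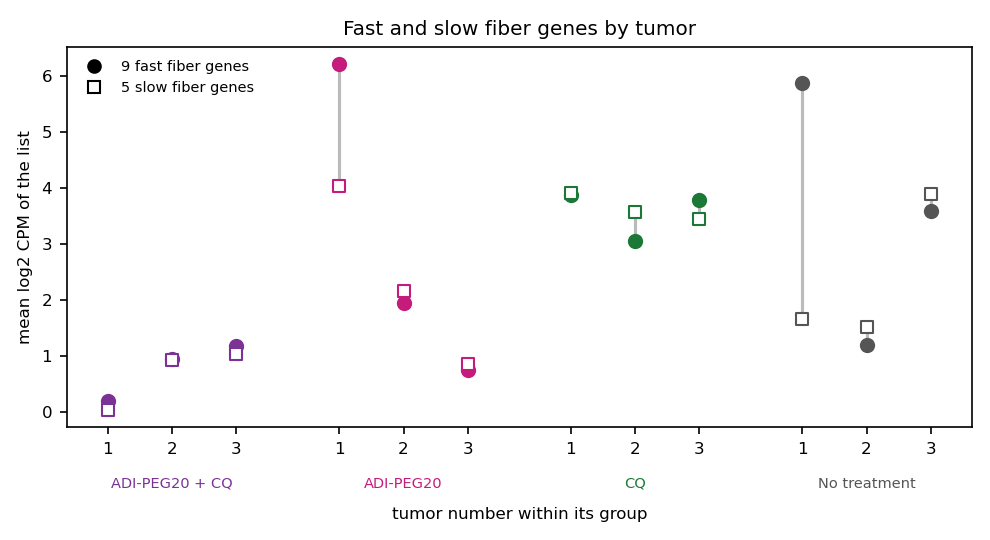
Mean level (log2 CPM) of the 9 fast fiber genes (filled circles) and the 5 slow fiber genes (open squares) in each of the 12 tumors, joined by a gray line. The pairs lie within 0.52 of each other in 10 tumors and part by 4.23 in NT tumor 1 and by 2.17 in ADI-PEG20 tumor 1.

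Genes of developing muscle that lie outside the set were read beside this. Myog, a regulator of muscle cell differentiation, had 1.61, 2.09 and 1.2 log2 CPM in ADI-PEG20 + CQ tumors, 4.18, 3.76 and 2.11 log2 CPM in ADI-PEG20 tumors, 5.4, 4.67 and 3.5 log2 CPM in CQ tumors, and -1, 2.57 and 4.61 log2 CPM in NT tumors. Myh3, the embryonic myosin heavy chain, had 4.24, 5.27 and 3.79 log2 CPM in ADI-PEG20 + CQ tumors, 8.03, 6.53 and 4.34 log2 CPM in ADI-PEG20 tumors, 8.25, 8.06 and 7 log2 CPM in CQ tumors, and 2.24, 4.6 and 7.91 log2 CPM in NT tumors. Both were lowest in NT tumor 1, the tumor with the widest gap between fast and slow genes, and high in the 3 CQ tumors, NT tumor 3 and ADI-PEG20 tumor 1. Myog in ADI-PEG20 tumor 2 was above CQ tumor 3 as well. Myh4, the myosin heavy chain of the fastest adult fibers, had 10.02 log2 CPM in ADI-PEG20 tumor 1 and 9.93 log2 CPM in NT tumor 1, and at most 4.90 log2 CPM in the other 10. Myf5 lay between 3.62 and 5.76 log2 CPM in all 12 tumors. Adipocyte and tendon lists were both highest in ADI-PEG20 tumor 1: adipocyte markers (10 of 12 in the table) summed to 457 CPM there, against 80.4 to 200 CPM elsewhere, and tendon and joint markers (7 of 8 in the table) to 1410 CPM, against 73.4 to 934 CPM elsewhere. Their part in the levels of the muscle genes was not tested. Of the cardiomyocyte markers 2 of 10 were in the table, and they summed to 0.985 to 5.71 CPM over the 12 tumors.

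**Figure D4:**
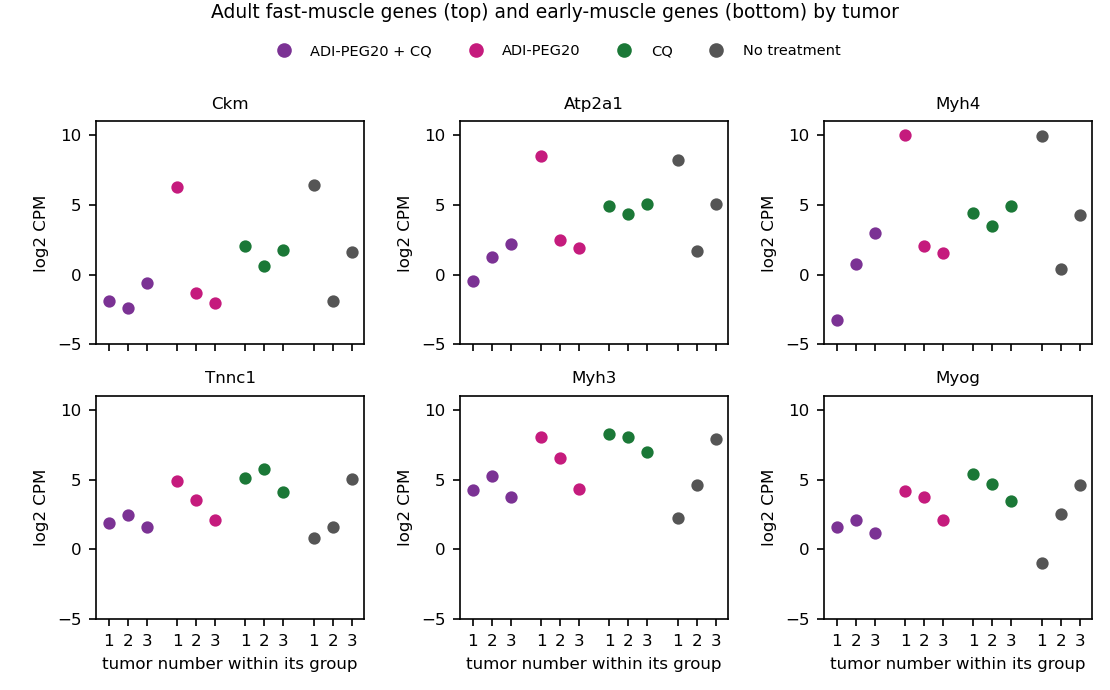
Levels (log2 CPM) of 3 genes of adult muscle (top row) and of Tnnc1, Myh3 and Myog, which developing muscle also uses (bottom row). Each panel has 1 point per tumor, colored by group. In the top row ADI-PEG20 tumor 1 and NT tumor 1 stand above the rest. In the bottom row NT tumor 1 is the lowest of the 12, and the 3 CQ tumors, NT tumor 3 and ADI-PEG20 tumor 1 are high.

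The combination was compared with chloroquine alone, which asks what ADI-PEG20 adds when chloroquine is present. All 32 genes were lower with both drugs in the fit of all 12 tumors, where 48.6% of all genes were lower, and Jph1 turned above 0 with scaling to the plain total of reads. The median log2 difference over the 32 genes was -2.58, against 0.01 over all genes. In 26 of the 32 genes every ADI-PEG20 + CQ tumor lay below every CQ tumor, against 9.57% of all genes, and in 0 above, against 8.78%. Mybpc1, Eno3, Trdn, Jph1, Myoz1 and Tcap were the 6 whose ranges overlapped. With limma on all 12 tumors, 0 of the 32 genes passed an adjusted p of 0.05, as did 0% of all genes; 19 had an unadjusted p under 0.05 and were lower, against 3.67% of all genes, and 0 were higher, against 3.11%. The smallest adjusted p was 0.491, for Ankrd2, whose difference of -5.16 (SE 1.11) rests on 0, 2 and 2 reads in the combination group and depends on the 0.5 read added. By role, the median difference was -2.76 for thin filament genes, -2.58 for thick filament genes, -2.37 for Z disc genes, -2.88 for calcium handling genes and -2.06 for energy supply genes. It was -2.68 for fast genes and -2.47 for slow genes.

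The shared fit takes its spread from all 4 groups, and for Acta1 the SD was 0.51 log2 CPM with both drugs and 0.55 with CQ, against 2.35 with ADI-PEG20 and 1.92 in NT tumors. In a fit of the 6 combination and CQ tumors alone, 17 of the 32 genes passed and all 17 fell with both drugs, where 0.349% of all genes were called lower and 0.0918% higher. These were 5 of 7 thin filament genes, 4 of 8 thick filament genes, 4 of 7 Z disc genes, 3 of 7 calcium handling genes and 1 of 3 energy supply genes. Actn3 fell by 3.04 on the log2 scale (SE 0.26, limma adjusted p = 0.00454), Acta1 by 3.32 (SE 0.30, limma adjusted p = 0.00510) and Tnni2 by 2.80 (SE 0.29, limma adjusted p = 0.00756). Slow forms were among the 17 as well: Tnnt1 fell by 2.47 (SE 0.31, limma adjusted p = 0.0143). The 15 that did not pass included Tnnt3 at -2.46 (limma adjusted p = 0.0524) and Mylpf at -2.68 (limma adjusted p = 0.0597), and Jph1 at -0.09 (limma adjusted p = 0.903). The calls of this fit depend on CQ tumors 1 and 2 and on the trend of the spread with expression. Without CQ tumor 1, 2 genes passed, Acta1 and Actn3, where 0.0245% of all genes were called lower. Without CQ tumor 2, 5 passed, where 0.0796% of all genes were called lower. With no trend in expression, 0 passed (0% of all genes lower), with a smallest limma adjusted p of 0.0727. Acta1 and Actn3 were called whichever of the 6 tumors was left out. Between these 2 groups, deviations from the group means correlated weakly in tumors with the same replicate number (0.117, 0.11 and 0.153). Over all groups such pairs reached 0.199 and differently numbered pairs 0.186, and the labels give no shared origin. With the number as a block, a fit added after seeing the data, 25 of the 32 genes passed, all lower, against 1.43% of all genes. With the block and no trend in expression, 0 passed (0% of all genes), with a smallest limma adjusted p of 0.176.

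**Figure D5:**
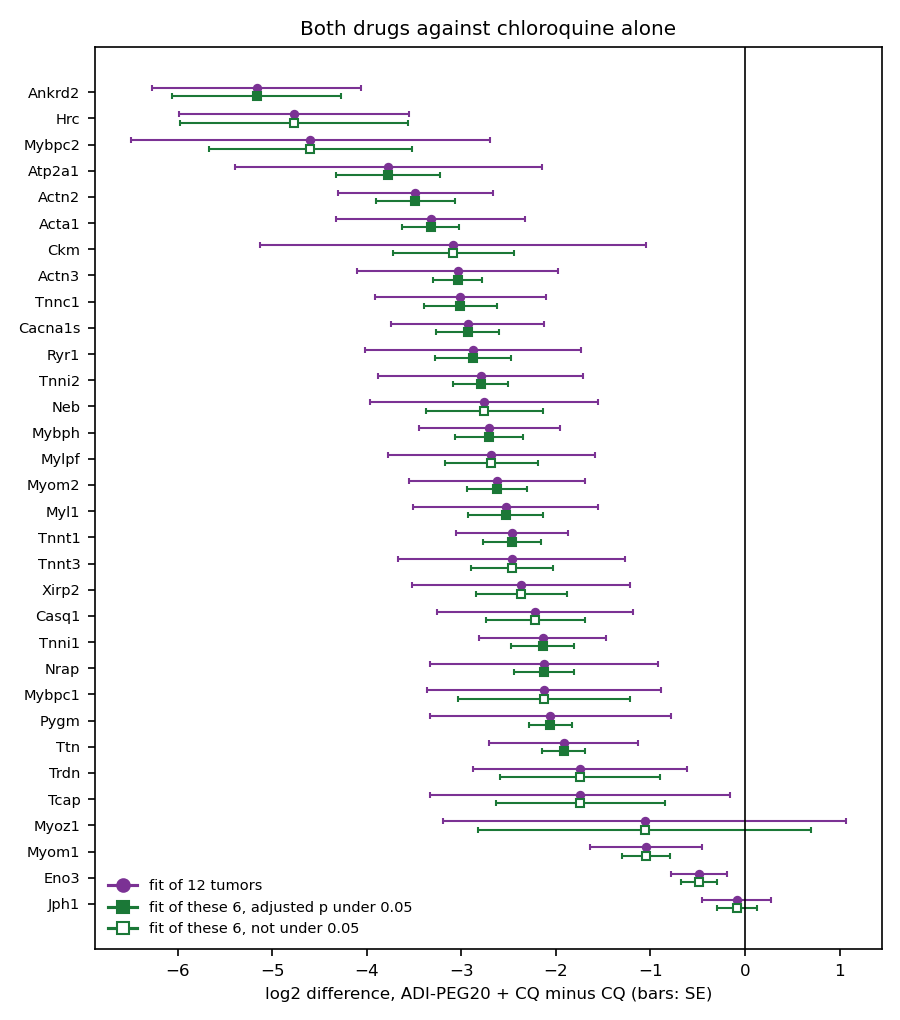
Log2 difference of the ADI-PEG20 + CQ tumors minus the CQ tumors for the 32 genes, with bars for the SE, in the fit of all 12 tumors (circles) and in the fit of these 6 alone (squares, filled where the adjusted p was under 0.05). All points lie left of 0, though Jph1 crossed it with scaling to the plain total, the SE is shorter for all 32 genes in the fit of 6, and 17 squares are filled.

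Against untreated tumors, the combination was also lower in all 32 genes, where 49.2% of all genes were lower, with a median log2 difference of -2.10. The groups did not overlap in 6 genes, Actn3, Cacna1s, Trdn, Ankrd2, Mybpc2 and Hrc, all lower, against 7.92% of all genes, and 0 genes stood apart as higher, against 7.46%. With limma, 0 of 32 genes passed (0% of all genes), and 9 had an unadjusted p under 0.05 and were lower, against 3.95% of all genes, while 0 were higher, against 4.7%. Hrc had the smallest p, with a difference of -5.15 (SE 1.21, limma adjusted p = 0.315) that rests on 6 reads in 1 combination tumor and 0 in the others. Cacna1s, with more reads, averaged 0.68 ± 0.44 log2 CPM with both drugs and 3.53 ± 1.08 log2 CPM in NT tumors (SD, n = 3 each), a difference of -2.86 (SE 0.81, limma adjusted p = 0.402). The median over the 32 genes was -1.37 without NT tumor 1 and -3.18 without NT tumor 2, the NT tumor with low levels.

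Against ADI-PEG20 alone, the combination was lower in 31 of 32 genes, where 48.9% of all genes were lower, with a median of -1.67. Eno3 was the exception, at 0.09 (SE 0.30). The groups did not overlap in Tnni1, Cacna1s and Hrc, all lower, against 4.47% of all genes, and 0 genes stood apart as higher, against 4.7%. With limma, 0 of 32 genes passed (0% of all genes), 5 had an unadjusted p under 0.05 and were lower, against 2.01% of all genes, 0 were higher, against 1.41%, and the smallest adjusted p was 0.894. The median was -0.46 without ADI-PEG20 tumor 1 and -2.62 without ADI-PEG20 tumor 3.

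The interaction asks whether ADI-PEG20 acted differently when chloroquine was present: it subtracts the ADI-PEG20 minus NT difference from the combination minus CQ difference. It was below 0 in 30 of 32 genes, where 49.6% of all genes were, with a median of -2.25. With limma, 0 of 32 genes passed (0% of all genes), and 7 had an unadjusted p under 0.05 and were below 0, against 2.36% of all genes, while 0 were above 0, against 1.9%. These were Actn2, Tnnc1, Tnni1, Tnnt1, Ankrd2, Mybph and Hrc. By fiber kind the median interaction was -2.28 over the 9 fast genes and -2.51 over the 5 slow genes. Tnnc1 had the smallest p, with an interaction of -4.04 (SE 1.28, limma adjusted p = 0.825). Without ADI-PEG20 tumor 1 the median was -0.88.

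ADI-PEG20 alone was lower than no treatment in 24 of 32 genes, where 51.3% of all genes were lower, with a median of -0.46. The groups overlapped in all 32 genes, while 4.54% of all genes were lower and 5.57% higher without overlap. With limma, 0 of 32 genes passed (0% of all genes). Eno3, the 1 gene with an unadjusted p under 0.05, against 3.13% of all genes lower and 5.17% higher in this way, averaged 6.44 ± 0.42 log2 CPM with ADI-PEG20 and 7.15 ± 0.62 log2 CPM in NT tumors (SD, n = 3 each), a difference of -0.70 (SE 0.30, limma adjusted p = 0.570). The sign of the median turned on single tumors: it was -1.69 without ADI-PEG20 tumor 1 and 0.50 without ADI-PEG20 tumor 3.

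Chloroquine alone was higher than no treatment in 23 of 32 genes, where 49.3% of all genes were higher, with a median of 0.36. The groups overlapped in all 32 genes, while 3.69% of all genes were higher and 3.72% lower without overlap. With limma, 0 of 32 genes passed (0% of all genes), and Tnnc1 and Tnnt1 had an unadjusted p under 0.05 and were higher, against 2.06% of all genes, and 0 were lower, against 1.33%. Tnnc1 averaged 4.99 ± 0.82 log2 CPM with chloroquine and 2.49 ± 2.25 log2 CPM in NT tumors (SD, n = 3 each), a difference of 2.5 (SE 0.91, limma adjusted p = 0.999). All 5 slow genes were higher in CQ tumors, with a median of 1.29, and 6 of 9 fast genes, with a median of 0.32. Of the slow genes, Mybpc1 differed by only 0.009 (SE 1.24). The fast minus slow gap was 4.23 in NT tumor 1 and -0.31 and -0.30 in NT tumors 2 and 3. In CQ tumors it ran from -0.52 to 0.33. The medians by fiber kind therefore depend on NT tumor 1, and they are not given here without it. The median over the 32 genes was 1.15 without NT tumor 1 and -0.52 without NT tumor 2. Over the 4 groups at once, limma's F test passed 0 of 32 genes (0% of all genes), with 10 at an unadjusted p under 0.05, against 5.72% of all genes. In the authors' deposited table, 0 of the 32 genes passed in any comparison. Over all 16335 genes, 1 passed there in the combination against chloroquine and 0 in each other comparison. The smallest deposited adjusted p of the 32 genes was 0.0651, for Ankrd2 in the combination against chloroquine, with a deposited log2 fold change of -5.21. The deposited fold changes were below 0 in 17 of the 32 genes for CQ against NT, where the fit here had 9. For ADI-PEG20 against NT they were below 0 in 31, where the fit here had 24. For the combination they were below 0 in 32 genes against NT and against CQ, and in 30 against ADI-PEG20.

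The other genes of contraction were read in the 12-tumor fit of the combination against chloroquine, where 48.6% of all genes were lower, 3.67% lower at an unadjusted p under 0.05 and 3.11% higher at one. Of 55 further contraction genes (59 listed, 3 of them also in the list of embryonic and fetal forms), 53 were lower with both drugs than with chloroquine, 25 at an unadjusted p under 0.05, with a median of -1.38. Of 8 sarcomeric myosin heavy chains, 8 were lower, 4 of them at an unadjusted p under 0.05, with a median of -2.38. Of 11 embryonic and fetal forms, 11 were lower, 10 of them at an unadjusted p under 0.05, with a median of -2.69. Myh3 and Myh8 are in both of these lists and count among the 4 and among the 10, so the counts are not independent. Actc1, the actin of developing and cardiac muscle, differed by -3.73 (SE 0.83, limma adjusted p = 0.491) and Myh8, the perinatal myosin heavy chain, by -3.80 (SE 0.86, limma adjusted p = 0.502). None of these genes passed the adjusted threshold in this comparison. The 9 myogenic regulators had a median of -0.32, with 8 lower and 2 of them, Myog and Myod1, at an unadjusted p under 0.05. Myf5 differed by -0.25 (SE 0.39).

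Markers of other cells were read in the same comparison, against the same shares of all genes (48.6% lower, and 3.67% lower and 3.11% higher at an unadjusted p under 0.05). Their part in the muscle gene differences was not tested. Smooth muscle markers were lower in 9 of 9 genes with both drugs than with chloroquine, 7 of them at an unadjusted p under 0.05, and summed to 1510 to 2140 CPM in combination tumors and 2190 to 3490 CPM in CQ tumors. Macrophage markers were higher in 9 of 10 genes, 6 of them at an unadjusted p under 0.05, and summed to 1670 to 2140 CPM in combination tumors and 1140 to 1450 CPM in CQ tumors. Keratinocyte markers were higher in 8 of 9 genes, 1 at an unadjusted p under 0.05, with a median of 0.90. Adipocyte markers were higher in 8 of 10, 1 at an unadjusted p under 0.05, and erythroid markers in 5 of 6 and Schwann cell markers in 5 of 6, 0 at one. Tendon and joint markers were lower in 6 of 7, 1 at an unadjusted p under 0.05. Satellite cell markers were lower in 3 of 6, with 1 higher and 1 lower at an unadjusted p under 0.05. Endothelial markers were lower in 3 of 10, with 0 at an unadjusted p under 0.05 either way. Against NT tumors, macrophage markers were higher with both drugs in 9 of 10 genes, 8 at an unadjusted p under 0.05 (4.7% of all genes), and smooth muscle markers were lower in 9 of 9, 4 at an unadjusted p under 0.05 (3.95% of all genes). No gene of these lists passed the adjusted threshold in either comparison.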

How the data were processed

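RNA of 12 frozen tumors was sequenced from total RNA after ribosomal depletion, per the labels' protocols. The authors deposited 1 merged table of 16386 lines with log2 CPM per tumor; 51 repeated identifiers were left out. The submitters' processing notes name the build mm10 and, with no role or order, limma, edgeR, Salmon (0.8.2), featureCounts of Subread (1.4.6-p5), STAR (2.5.1a) and bcl2fastq. Per the file headers, the table also holds the authors' log2 fold changes, p-values and adjusted p-values, and signed fold changes (a score), which were not used in the tests. The log2 CPM were computed with 0.5 read added and an effective library size. Dividing by the worth of 1 read (0.0320 to 0.0794 CPM) gave whole reads, within 0.02, for 100% of values under 2000 reads. The lowest total of a gene over the 12 tumors was 85 reads. Replicate libraries differed by a chi-square of 24.75 to 279.3 per degree of freedom, far above counting error. SD and SE come from the spread between these libraries, which may be technical if they are not from separate animals.

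The log2 CPM were fitted with limma 3.58.1 in R 4.3.3, 12 tumors and 4 group means in 1 fit, with moderated statistics and a trend in expression. Tests were two-sided and called at a Benjamini-Hochberg adjusted p under 0.05, with the adjustment over all 16335 genes. Replicate numbers did not enter the fit of 12 tumors or the fit of 6, and a replicate block was run only as an alternative. Between the combination and CQ groups, all 3 same-numbered pairs had a correlation of deviations from the group means over 0.1 (0.117, 0.11 and 0.153). In the other comparisons at least 1 pair did not, and the labels give no shared origin. The comparisons with NT share the NT tumors, and those of the combination share its tumors, so their results are not independent. The genes of the set and all lists were chosen with earlier results of these data known, so no test over a list was made. Values in every tumor are given for paired fast and slow forms, for the highest gene of each role and for the gene with the smallest p in each comparison with NT. Values of Ckm, Cacna1s, Ankrd2, Myog, Myh3 and the genes named in the 6-tumor fit were added after seeing them. Coordinates and exon lengths are from GENCODE M21 (GRCm38, the build of mm10). The code was tested on simulated data. Alternatives were limma voom on the recovered reads, library weights, only the groups compared, no trend, 2 reads added, other scalings, a filter at a mean log2 CPM of 1, a replicate block and leaving out each tumor.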

Additional observations from a re-analysis of the deposited data

How the results depend on the processing

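In the combination against chloroquine, the number of the 32 genes called was 0 in the fit of 12 tumors and 17 with only the 2 groups compared. With library weights it was 1 (Ankrd2, limma adjusted p = 0.049). All of these were lower, and the shares of all genes called lower were 0%, 0.349% and 0.0551%. Alternatives added after seeing the data repeated the fit of those 2 groups, and all genes of the set that passed were lower. The share of all genes called lower is given in brackets. With the replicate block 25 genes passed (1.43%), and with the block and no trend in expression 0 (0%). With scaling to the plain total of reads 16 passed (0.239%), and with no trend in expression 0 (0%). With 1 tumor left out, 2 to 17 passed. These were 13, 13 and 17 without ADI-PEG20+CQ replicates 1, 2 and 3 (0.147%, 0.239% and 0.233%). Without CQ replicates 1, 2 and 3 they were 2, 5 and 16 (0.0245%, 0.0796% and 0.606%). The cause was not tested. No other comparison called any of the 32 genes under any alternative run, including leaving out each tumor. Left-out tumors moved the median of the 32 genes to between -1.69 and 0.50 for ADI-PEG20 against NT, -0.52 and 1.15 for CQ against NT, -3.18 and -1.37 for the combination against NT, -2.62 and -0.46 against ADI-PEG20, -2.80 and -2.10 against CQ, and -3.11 and -0.88 for the interaction. Without ADI-PEG20 tumor 1 and NT tumor 1 together, chosen after seeing the data, the medians were -1.06, 1.15, -1.37, -0.46 and, for the interaction, -1.71.

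Scaling to the plain total moved the median of all genes by 0.11 to 0.17 in the combination comparisons and the interaction; relative to that shift the median of the 32 genes was -2.59 in the combination against chloroquine, where Jph1 turned above 0. With library weights, 31 of 32 genes were below 0 for ADI-PEG20 against NT (median -1.70) and 17 of 32 for CQ against NT (median -0.04). A filter at a mean log2 CPM of 1 kept 25 of the 32 genes. In the fit of 12 tumors, the replicate block left 0 of the 32 genes called in every comparison. Over all groups, 9 of 18 same-numbered pairs had a correlation of deviations over 0.1 (median 0.097), against 3 of 36 differently numbered pairs (median -0.039). The standard deviation of the fast minus slow gap over the 12 tumors was 1.37. It was recomputed in 4 alternatives, with 2 reads added, other scalings and the filter, and none of these left out a tumor. None moved it by more than the pooled SD of the gap within groups, 1.49. That limit is larger than 1.37, so even a loss of the gap would have passed, and the check says nothing on stability. Genes with few reads (Ankrd2, Hrc, Mybpc2, Myoz1) have differences that depend on the read added.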
